A study of Arabidopsis thaliana with 12 samples.

Results

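The 4 genes described here encode proteins with RNA-binding domains, and their transcripts were measured in all 12 samples of an expression array study of proline treatment in Arabidopsis thaliana. AT1G12800 encodes a protein with an S1 domain, AT2G37510 and AT5G04600 encode proteins with an RNA recognition motif (RRM), and AT3G59980 encodes a protein with a tRNA-binding domain. These are 4 of the 691 genes that have a probe of their own, meaning a probe that the platform annotation pairs with exactly 1 gene. They were chosen by their large differences in array intensity between proline-treated and water-treated plants in these same samples, so those differences are given as a description, with no test.

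All samples are total RNA of wild-type Wassilevskija plants. A group of 6 samples came from plants kept for 6 h with 100 mM proline, which by the labels brought cellular proline to a toxic level, and a group of 6 from plants given water. How long the water treatment lasted is not stated, so the effects of time and of proline cannot be told apart. The labels name no organ or plant age, nor do they say whether the samples of a group came from separate plants.

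RNA-binding proteins act at the step between transcription and translation: they process, protect and present transcripts. The S1 domain is a small beta-barrel fold first known from a bacterial ribosomal protein, and plants carry it in proteins that act on plastid RNA. In Arabidopsis the product of AT1G12800 is known as a plastid protein needed for the processing of ribosomal RNA. The RRM is a common RNA-binding domain of plants, and it binds short single-stranded stretches of RNA through conserved aromatic residues. The tRNA-binding domain of the kind named for AT3G59980 is known from yeast Arc1p, where it helps to bring tRNA to the enzymes that charge it. Plants build up proline under drought and salt, and it harms tissue when it is supplied in excess.

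Intensities were deposited on a linear scale from 0 to 100, and they are given below after quantile normalization unless a sentence says otherwise. The sample medians of the deposited values ran from 0.213 to 0.361 in proline and from 0.171 to 0.188 in water, and proline samples 3 and 4 had the highest medians, 0.361 and 0.350. Samples 1 and 2, 3 and 4, and 5 and 6 of a group resembled each other, so a group of 6 may hold repeat measurements. The p-values and SEs below count the 6 as separate samples and rest on a spread between them that may be technical. Of all 3097 tested probes, 38.0% passed the comparison of proline with water (limma, Benjamini-Hochberg adjusted p under 0.05), with 17.1% higher and 20.9% lower in proline. Among the 620 tested probes with 1 gene 37.3% passed. The precision of every value is limited by the small number of arrays, and in bulk RNA fewer cells of a type and less RNA per cell cannot be told apart.

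AT1G12800, the S1-domain gene, was the only one of the 4 with a higher signal in proline. Its normalized intensity was 5.27, 5.51, 4.42, 5.27, 6.81 and 7.60 in proline samples 1 to 6. In water samples 1 to 6 it was 0.836, 0.895, 0.640, 0.717, 0.565 and 0.668. The lowest proline sample stood 4.93-fold above the highest water sample, so the groups were far apart, where 22.5% of all tested probes had groups that did not overlap and 10.4% had all proline samples above all water samples. The means were 5.82 ± 1.17 in proline and 0.720 ± 0.124 in water (SD, n = 6 each), a log2 difference of 3.01 (SE 0.15), or 8.04-fold. Among the 620 tested probes with 1 gene this was the third largest rise, and by size it ranked 10 among all 3097.

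Proline samples 5 and 6 were the highest for AT1G12800 and proline sample 3 the lowest, whereas in water samples 1 and 2 were the highest and sample 5 the lowest. The same-numbered difference was therefore largest for numbers 5 and 6, at 3.59 and 3.51 on the log2 scale, and smallest for number 2, at 2.62. In the values as deposited the order of the samples was nearly the same, with 4.11 to 8.43 in proline and 0.463 to 0.757 in water. Within its groups the gene varied less than most: its within-group SD was 0.266 on the log2 scale, and 38.8% of tested probes had a smaller one (median of all probes 0.312).

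Both RRM genes and the tRNA-binding-domain gene were lower in proline, and AT2G37510 showed the largest of the 3 differences. Its normalized intensity was 0.489, 0.560, 0.408, 0.442, 0.527 and 0.575 in proline samples 1 to 6. In water samples 1 to 6 it was 1.30, 1.42, 1.85, 1.94, 1.70 and 1.56. Every proline sample was below every water sample, as for 12.1% of all tested probes, with a ratio of 2.27 between the lowest water and the highest proline value. The means were 0.500 ± 0.066 in proline and 1.63 ± 0.25 in water (SD, n = 6 each), and the log2 difference of -1.70 (SE 0.13) makes the gene 3.25-fold lower in proline.

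For AT2G37510, samples 3 and 4 were the lowest of the proline group and the highest of the water group, and their same-numbered log2 differences were -2.18 and -2.13. The other 4 numbers lay between -1.69 and -1.34. In the values as deposited, proline samples 3 and 4 were not low: the group stood at 0.546 to 0.646 with 0.615 and 0.646 for those samples. The coefficient of variation of the proline group was 6.75% as deposited and 13.2% after normalization. Proline samples 3 and 4 are those with the high deposited medians, which normalization scales down; the part of this in the order of the samples was not tested. Without proline samples 3 and 4 the log2 difference was -1.59. Within-group spread was small, with 22.9% of tested probes below it.

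AT5G04600, the second RRM gene, was dim and the only one of the 4 whose groups overlapped in the values as deposited. After normalization every proline sample was below every water sample, as for 12.1% of all tested probes. The lowest water value was then 1.58-fold the highest proline value. Its normalized intensity was 0.0989, 0.0377, 0.103, 0.0886, 0.108 and 0.0885 in proline samples 1 to 6. In water samples 1 to 6 it was 0.194, 0.231, 0.237, 0.219, 0.171 and 0.194. Proline sample 2 stood at the floor of 0.0377 set in processing, so its value there is an upper bound. The means were 0.0875 ± 0.0256 in proline and 0.208 ± 0.025 in water (SD, n = 6 each), a log2 difference of -1.32 (SE 0.23), or 2.49-fold lower. Without proline sample 2 the log2 difference was -1.07.

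For this gene the groups separated only after scaling between samples. As deposited, its intensities were 0.0901, 0.0188, 0.177, 0.154, 0.0918 and 0.0708 in proline samples 1 to 6. Water samples stood at 0.144 to 0.181 as deposited. Proline samples 3 and 4 thus lay inside the water range and the other 4 below it. On this scale the groups of 27.3% of all tested probes did not overlap. The log2 difference was -0.83 as deposited. Set against the median probe it was -1.25 as deposited and -1.28 after normalization. The within-group SD of 0.422 was the largest of the 4, and 68.8% of tested probes had a smaller one.

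AT3G59980, the tRNA-binding-domain gene, had normalized intensities of 0.772, 0.848, 0.493, 0.451, 0.628 and 0.576 in proline samples 1 to 6. In water samples 1 to 6 the intensities were 1.60, 1.67, 2.03, 2.01, 1.34 and 1.37. No proline sample reached a water sample, as for 12.1% of all tested probes. The lowest water value was 1.58-fold the highest proline value. The means were 0.628 ± 0.156 in proline and 1.67 ± 0.30 in water (SD, n = 6 each), a log2 difference of -1.43 (SE 0.17), or 2.70-fold lower.

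Samples 3 and 4 were again the lowest in proline and the highest in water for AT3G59980, with same-numbered log2 differences of -2.04 and -2.16, while the other 4 numbers lay between -1.25 and -0.98. As deposited, proline samples stood at 0.630 to 0.987 and water samples at 1.24 to 1.79. On that scale proline sample 6 was the lowest of its group, so samples 3 and 4 were the lowest of the proline group only after normalization. In the water group samples 3 and 4 were the highest on both scales. Leaving out proline samples 3 and 4 gave a log2 difference of -1.24, against -1.43 with all samples.

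**Figure D1:**
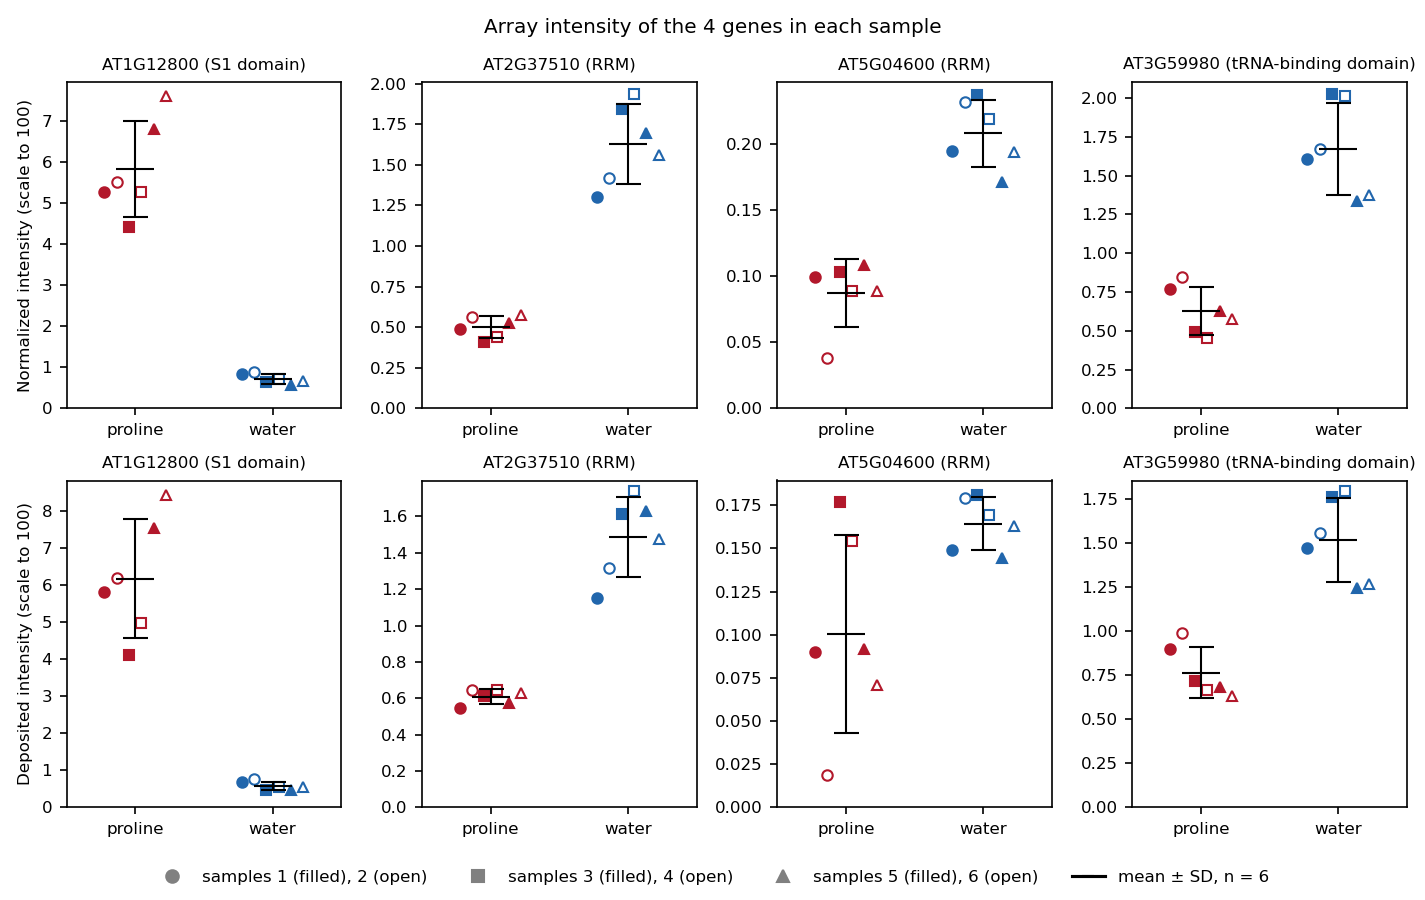
Array intensity of the 4 genes in each sample, after quantile normalization (upper row) and as deposited (lower row), with proline left of water in each panel and linear axes from 0. Points are samples, with a shape for each pair of sample numbers, and bars are the mean ± SD of 6 samples. The groups do not overlap in any upper panel, as for 22.5% of all tested probes. In the lower row AT5G04600 has proline samples 3 and 4 inside the water range.

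Neighbouring sample numbers resembled each other most clearly in AT3G59980. Its 3 pairs (1 and 2, 3 and 4, 5 and 6) differed by 0.125 to 0.136 on the log2 scale in proline and by 0.012 to 0.061 in water. The 12 other combinations within a group differed by 0.224 to 0.911 in proline and by 0.226 to 0.601 in water. For this gene the 6 values of a group thus behaved as 3 pairs, with pair means of 0.809, 0.471 and 0.601 in proline and 1.64, 2.02 and 1.36 in water. AT2G37510 and AT1G12800 showed the same tendency with overlap. The median difference in AT2G37510 was 0.127 within pairs and 0.256 otherwise in proline, and 0.120 and 0.286 in water. In AT1G12800 it was 0.159 and 0.368 in proline, and 0.164 and 0.333 in water. AT5G04600 did not show it in proline, where the median difference was 0.290 within pairs and 0.189 otherwise, and pair 1 and 2 differed by 1.39, with sample 2 at the floor.

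The 4 genes kept their directions under every one of the 9 other ways of processing and in each of the 12 fits without 1 sample. Some of these ways could not change the differences: the replicate number as a block, the means of pairs, and leaving out the dimmest probes. Taking out the floor, or raising it to the 20th percentile, also left AT1G12800, AT2G37510 and AT3G59980 unchanged. The genes were chosen for large differences in these same samples, so the kept directions are no separate support. AT1G12800 ranged from 2.81 under median centring to 3.39 in the values as deposited. In the values as deposited AT2G37510 was at -1.28 and AT3G59980 at -0.99, while the median probe was at 0.41 there, against -0.03 after quantile normalization. Relative to that median, AT1G12800 was at 2.97 as deposited and 3.04 after normalization, AT2G37510 at -1.69 and -1.67, and AT3G59980 at -1.41 and -1.40.

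**Figure D2:**
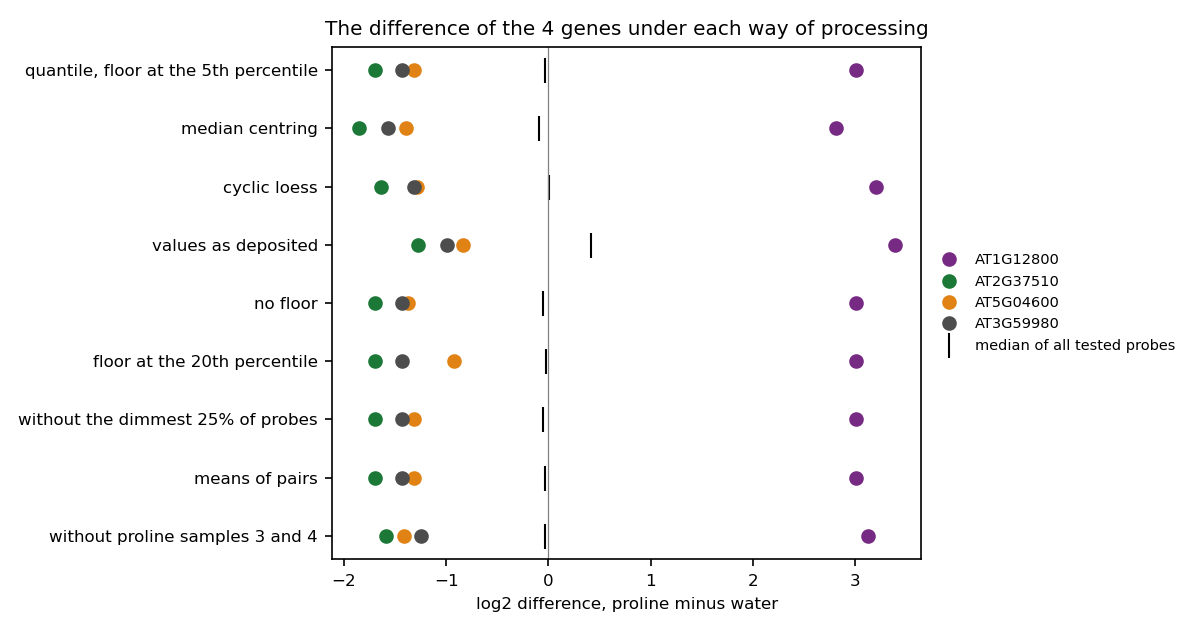
Log2 difference (proline minus water) of the 4 genes under each way of processing, with a vertical tick for the median of all tested probes. AT1G12800 lies between 2.81 and 3.39 in all rows, and the other 3 genes lie below 0 in all rows, nearest to it in the values as deposited. The rows for the means of pairs and without the dimmest probes equal the first row by design.

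AT1G12800 and AT2G37510 each appear on a second probe, which the annotation pairs with several genes and from which no gene can be named. Probe 1856 lists AT1G12800 and 1 other gene. Its normalized intensity was 0.332, 0.347, 0.404, 0.341, 0.305 and 0.280 in proline samples 1 to 6, and 0.313, 0.254, 0.313, 0.325, 0.351 and 0.387 in water samples 1 to 6. The groups overlapped almost wholly, with a log2 difference of 0.05 (SE 0.12), against 3.01 on the probe of AT1G12800 alone. The difference was positive for 4 of the 6 sample numbers, and it was 0.69 in the values as deposited, or 0.27 above the median of all probes there. The 2 probes thus disagree, and which transcript probe 1856 measured is not settled by the files.

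Probe 439 lists AT2G37510 and 2 other genes. It stood at 0.558, 0.589, 0.545, 0.802, 0.420 and 0.352 in proline samples 1 to 6, and at 0.912, 0.891, 0.789, 0.799, 0.656 and 0.619 in water samples 1 to 6. It was lower in proline for 5 of the 6 sample numbers, with number 4 at 0.00, and the groups overlapped. The log2 difference of -0.55 (SE 0.19) had the direction of AT2G37510's own probe, at -1.70, but it was -0.02 in the values as deposited, or -0.43 relative to the median of all probes on that scale. No probe with several genes lists AT5G04600 or AT3G59980.

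**Figure D3:**
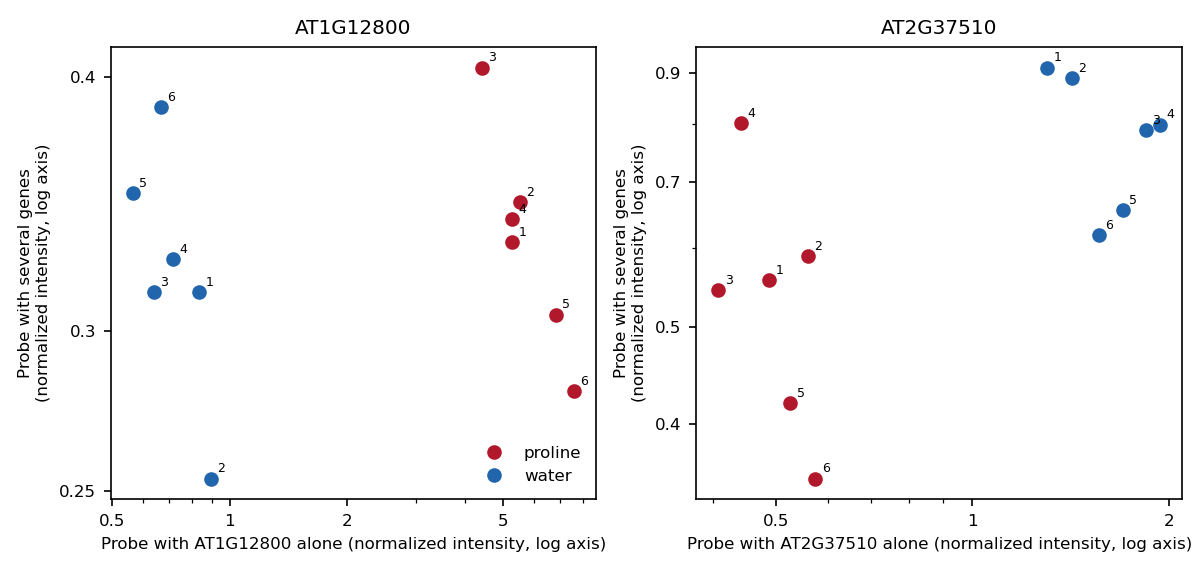
Normalized intensity of the probe paired with AT1G12800 alone (left) or AT2G37510 alone (right) on the x axis against the probe that lists that gene among several on the y axis, both log axes, with sample numbers beside the points. Proline and water are far apart along each x axis and overlap along each y axis.

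The order of samples within a group was compared between the genes through the deviations of the 12 samples from their group means, which leave out the difference between the groups. AT2G37510 and AT3G59980 deviated alike, with a Pearson r of 0.54 over the 12 samples, and the other pairs among the 4 genes lay between -0.29 and 0.19. Probe 1856 deviated against the probe of AT1G12800 alone (r = -0.84). These are descriptions, since the samples share arrays, normalization and the pairs of numbers.

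Among the 547 other probes with 1 gene and at most 2 values at the floor, those most like each gene in these deviations were as follows. For AT1G12800 they were AT1G28150 (r = 0.86), AT3G06870 (0.85) and AT3G28460 (0.81), with log2 differences between proline and water of -0.13, -0.56 and -0.23. For AT2G37510 they were AT4G13200 (0.78), AT4G09620 (0.76) and AT4G30680 (0.75). AT3G59980 was most like FBL17 (0.93), AT3G06570 (0.92) and AT2G31920 (0.91). AT5G04600 was most like AT5G34870 (0.92), AT5G17280 (0.83) and AT5G16230 (0.83), with log2 differences of 1.1, 0.03 and -0.80. For AT5G04600 proline sample 2, at the floor, lay by far the farthest from its group mean. The r values of this gene therefore rest largely on that sample.

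Over the 12 samples with the groups left in, likeness mostly repeats the separation of the groups, and 619 other probes with 1 gene were compared. AT3G06200 (r = 0.99, a guanylate kinase gene), AT5G06010 (0.99) and AT5G15280 (0.99) were the most like AT1G12800, with log2 differences of 2.38, 2.21 and 2.99. AT4G04370, AT4G25290 and CYN, the gene of cyanase, were the most like AT2G37510 (0.98 each), and CYN was also among the 3 most like AT5G04600 (0.89). AT3G06570 (0.99) was the most like AT3G59980, followed by chr31 (0.98) and AT2G21720 (0.97). AT5G16230 (0.95) was the most like AT5G04600, followed by AT3G26630 (0.89). AT3G06570 and AT5G16230 each also stood among the 3 most like the same gene in the deviations. For AT5G04600 both rankings include proline sample 2 at the floor.

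Few of the other RNA-related genes listed for comparison were found among the probes with 1 gene. The 870 probes with several genes and 1877 unnamed probes were not searched. Of 106 listed genes of plastid RNA-binding and RNA-processing proteins, aminoacyl-tRNA synthetases and RRM proteins of the nucleus, cytosol and mitochondria, 2 had a probe of their own. One is AT4G33760, an aspartyl-tRNA synthetase, which is listed at 0 in all 12 samples. A wider set of 18 genes in 3 lists, on 19 probes of which 18 were tested, was therefore drawn from the families of the genes with a probe of their own. It includes AT1G01080 and AT1G70200, plastid RRM genes that the 106 had left out. Pentatricopeptide repeat genes, another family that acts on organelle RNA, are not in this set. What follows therefore holds for the 18 genes and not for RNA-binding genes at large. Of the 18 tested probes 4 rose and 3 fell, a share of 38.9% beside the 38.0% of all tested probes, and the list's median was -0.07, against -0.03 for all tested probes and 0.00 for those with 1 gene. Their log2 differences lay between -0.72 and 0.84, all smaller in size than those of the 4 genes, which had been chosen for their size. With the means of the pairs 1 of the 18 passed, where 17.1% of all probes did.

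Among the 5 other RRM genes 2 rose and 0 fell, a share near the 38.0% of all tested probes. AT3G04500 stood at 0.654 ± 0.041 in proline and 0.447 ± 0.063 in water (SD, n = 6 each; log2 difference 0.56, limma adjusted p = 0.0011). Its groups did not overlap, as for 22.5% of all tested probes. AT4G09040, a plastid RRM protein, was at 0.163 ± 0.023 in proline and 0.106 ± 0.033 in water (0.66, limma adjusted p = 0.015). AT1G01080, also of the plastid, had a log2 difference of 0.54 that did not pass (limma adjusted p = 0.20), although it did with the replicate number as a block (limma adjusted p = 0.011) and in the values as deposited (limma adjusted p = 0.038). Its difference was 0.28 under median centring and 0.27 without proline samples 3 and 4 (limma adjusted p = 0.480 and 0.576). AT1G70200, which binds ribosomal RNA in the plastid, was at 0.12 and UBA1A, a nuclear protein, at -0.72, neither passing (limma adjusted p = 0.531 and 0.145). AT1G70200 passed in the values as deposited (0.71, limma adjusted p = 0.0031, or 0.29 against the median probe), where 4 of the 5 were called, and UBA1A without proline samples 3 and 4 (-1.15, limma adjusted p = 0.023). With the means of pairs AT3G04500 and AT4G09040 did not pass (limma adjusted p = 0.067 and 0.097).

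Of 8 genes of enzymes that modify ribosomal or transfer RNA, 1 rose and 1 fell, a share of 25% beside the 38.0% of all tested probes. AT5G10910, a methyltransferase of the MraW family, stood at 0.276 ± 0.045 in proline and 0.197 ± 0.017 in water (SD, n = 6 each; log2 difference 0.48, limma adjusted p = 0.0070). AT2G30320, a pseudouridine synthase, was at 0.25 ± 0.048 in proline and 0.392 ± 0.044 in water (-0.66, limma adjusted p = 0.0024), and in the values as deposited its difference was -0.06 (limma adjusted p = 0.852), or -0.48 against the median probe. AT2G19870, a SpoU-family methyltransferase, had a log2 difference of -0.35 and did not pass (limma adjusted p = 0.090). Neither of the genes that passed did so with the means of pairs (limma adjusted p = 0.099 for AT5G10910 and 0.056 for AT2G30320).

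Of the genes for tRNA charging, RNA ends and RNA helicases, 5 probes were tested, of which 1 rose and 2 fell. The share was 60%, on only 5 probes, beside the 38.0% of all tested probes. AT3G58570, a DEAD-box helicase, stood at 0.171 ± 0.044 in proline and 0.097 ± 0.028 in water (SD, n = 6 each; log2 difference 0.84, limma adjusted p = 0.011), and it alone of the 18 passed with the means of pairs (limma adjusted p = 0.046). AT5G19210, another DEAD-box helicase, was at 1.12 ± 0.21 in proline and 1.51 ± 0.10 in water (-0.45, limma adjusted p = 0.013). AT2G25870, an endoribonuclease of the YbeY family, has 2 probes of its own that disagree: probe 2727 fell (-0.50, limma adjusted p = 0.0049) and probe 2853 was at 0.10 (limma adjusted p = 0.403). In the values as deposited AT5G19210 was at -0.06 and probe 2727 at 0.07, or -0.48 and -0.35 against the median probe, and neither passed (limma adjusted p = 0.716 and 0.705). Probe 2853 was at 0.78 there and passed (limma adjusted p = 0.00049), or 0.37 against the median probe.

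**Figure D4:**
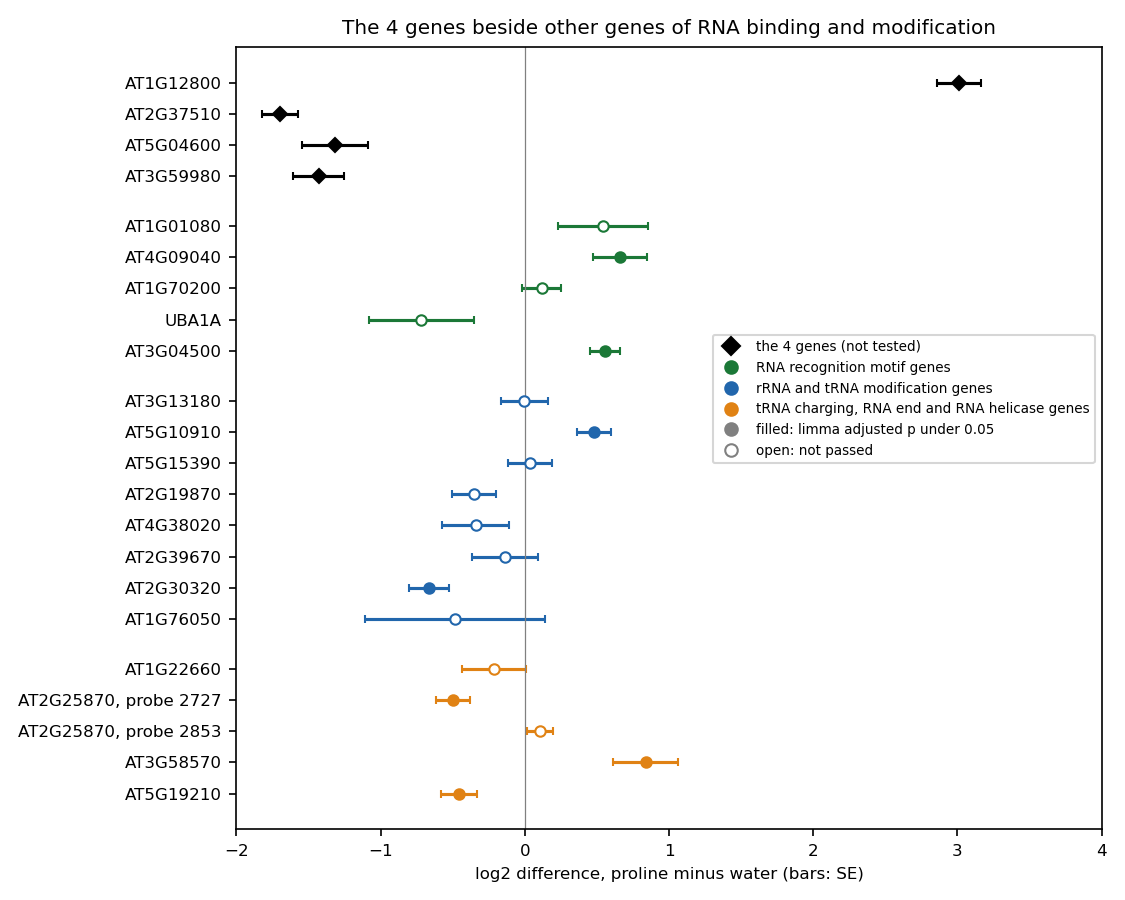
Log2 difference between proline and water with its SE for the 4 genes (black diamonds, not tested) and for the 18 tested probes of other RNA-binding and RNA-modifying genes, filled where the limma adjusted p was under 0.05. The SE counts all samples of a group as separate. The other probes lie between -0.72 and 0.84, inside the range set by the 4 genes, and 4 filled points lie above 0 and 3 below it.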

How the data were processed

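Total RNA of 12 samples was measured on an expression array, 6 from proline-treated and 6 from water-treated plants, with groups and numbers taken from the sample titles. For 3439 probes the authors deposited intensities, whose values show a linear scale ending at 0 and 100; the sources used here do not give the array type, scanning or scaling. Probes were named through GEO's platform annotation (692 with 1 gene, 870 with several, 1877 unnamed), and 690 of the 692 matched the names of assembly TAIR10.1. No probe, promoter or protein sequences were used here, so relatives were not searched by sequence as planned.

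Values were quantile-normalized, set to a floor of 0.0377 (the 5th percentile of positive deposited values) and logged (log2). After 342 probes with no value above the floor were dropped, 3097 were tested with limma 3.58.1 in R 4.3.3 (lmFit, eBayes, two-sided, Benjamini-Hochberg threshold 0.05), with no block. The fit was tested on simulated data. The simulated samples were drawn independently of each other, so this test cannot show how the fit does where samples resemble each other in pairs. Deviations from group means correlated at 0.46, 0.47, 0.29, 0.30, 0.20 and 0.16 between same-numbered samples, each over the planned limit of 0.1. The highest correlations with another number were lower, at 0.159, 0.159, 0.174, 0.174, 0.083 and 0.083, though some also passed 0.1. By the planned rule the numbers pair the samples. The fit without a block was kept as planned, and the block is given where it changes a call.

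The genes and lists were chosen with earlier results of these data known, and the 18 other RNA-related genes were listed from general knowledge of their families after the probe table was seen. Genes named are the 4, every one of the 18 that passed, the 3 of each list with the smallest p, and the 3 probes most like each gene. Outside this rule, and chosen after their values were seen, AT1G01080 and AT1G70200 complete a list of 5, AT4G33760 completes a count, and AT2G39670 stands for its outlying sample.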

Additional observations from a re-analysis of the deposited data

Results flagged for a closer look

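In 3 of 48 groups of 6 values examined, 1 sample lay far from the other 5, where chance gives about 1 in 20. For AT5G04600, proline sample 2 had the floor value, 0.03771, and the other proline samples lay between 0.0885 and 0.108. AT2G39670, a radical SAM protein gene that did not pass the test, stood at 0.1414 in water sample 5, against 0.0562 to 0.0826 in the other water samples. AT2G30320, the pseudouridine synthase gene that fell, stood at 0.3095 in water sample 6, against 0.394 to 0.443.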

How the results depend on the processing

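With the means of pairs 530 probes were called, 260 higher and 270 lower, against 1176, 529 and 647 with 6 samples per group, and 1 of the 18 other RNA-related probes, against 7. In the values as deposited 1191 probes were called higher and 178 lower, and the log2 differences were 3.39 for AT1G12800, -1.28 for AT2G37510, -0.83 for AT5G04600 and -0.99 for AT3G59980. Leaving out 1 sample at a time gave 1075 to 1136 calls, 489 to 516 higher and 583 to 628 lower, 7 to 8 of the 18, and log2 differences of 2.92 to 3.13, -1.74 to -1.63, -1.38 to -1.07 and -1.53 to -1.36 for the 4 genes in the same order. With the floor at the 20th percentile AT5G04600 was at -0.93. AT2G25870 (probe 2727) was at 0.069 in the values as deposited, against -0.50; the cause was not tested. The replicate block, which cannot change a log2 difference in this balanced design, called 8 of the 18, AT1G01080 being the one added. Dim probes such as AT5G04600 lie near the floor, which limits their precision.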
